A study of Homo sapiens with 2 samples.

Results

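The genes described here are 10 genes that ERK signalling switches on and whose products feed back on it or carry it further: the phosphatase genes DUSP1, DUSP4, DUSP5 and DUSP6, the inhibitor genes SPRY1, SPRY2, SPRY4 and SPRED1, and the transcription factor genes ETV4 and ETV5. They were chosen by name, and every array probe whose RefSeq accession belongs to 1 of these symbols was taken, which gave 13 of the 41000 probes of the array. SPRED1, ETV4 and ETV5 had more than 1 probe, and the probes of 1 gene share their target. All 13 probes were among the 36060 probes with a signal well above background in at least 1 RNA in both hybridizations and a ratio in both, which are called the kept probes.

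Both RNAs came from SKOV3, a human ovarian adenocarcinoma cell line. The knockdown RNA was from cl-sh3, 1 clone selected in puromycin after lentiviral delivery of a short hairpin RNA against RUNX2 (a transcription factor of bone formation) in the vector pLKO.1-puro, and the control RNA was from 1 clone with a scramble sequence in the same vector, named mock-transfected in the labels. In hybridization 1 cl-sh3 carried Cy5 and the control Cy3, and in hybridization 2 the dyes were exchanged. The same pair of RNAs was used in both, on 1 slide, so the data are 1 replicate with no test and no p-value, the spread between hybridizations is technical only, and the loss of RUNX2 and other differences between 2 single clones cannot be told apart.

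Growth factor receptors activate RAS, RAF, MEK and ERK in turn, and active ERK enters the nucleus and turns on a characteristic group of genes. Dual-specificity phosphatases remove the activating phosphates from ERK and related kinases, Sprouty and SPRED proteins act further up, between the receptor and RAF, and the PEA3 group of ETS factors carries the signal on to other genes. The pathway drives growth in many epithelial tumours, and the RNA levels of these genes are widely read as a record of recent ERK activity, although each also has other inputs.

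DUSP6 was lower in cl-sh3 by 2.61-fold on average, and 1 of the ETV5 probes by 1.88-fold. SPRY1, SPRY2 and the dimmer SPRED1 probe followed with smaller differences, between 1.36-fold and 1.46-fold, and the brighter ETV5 probe with 1.30-fold. DUSP1, DUSP4 and DUSP5, ETV4, SPRY4 and the brighter SPRED1 probe had mean log2 ratios between -0.18 and 0.06. The study's rule, at least a 2-fold difference in both hybridizations, was put here to newly normalized ratios and not to those the authors deposited. By it, 0 of the 13 probes were lower and 0 were higher in cl-sh3, where 0.394% of all kept probes were lower and 0.122% higher. With the rule on the mean of both hybridizations, 1 of the 13, DUSP6, was lower, and 0.693% of all kept probes were. DUSP6 missed the rule on both in hybridization 2, and the ETV5 probe at 1.88-fold missed it narrowly in both. With the scanner software's ratios these 2 probes were lower by the rule, as were 0.702% of all kept probes.

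The array held 3 probes for the targeted gene, RUNX2. Of the pair with the accession NM_004348, A_32_P161762 gave log2 ratios of cl-sh3 over control of -2.04 and -1.30, and A_24_P69267 gave 0.17 and -0.13. The probe of NM_001015051 gave -0.29 and -0.17. At least 2-fold lower in both hybridizations was therefore 1 of the 3 probes, another was below 0 in both by less, and the remaining one had mixed signs. The 7 epithelial and ovarian markers looked up, among them KRT8, EPCAM and PAX8, were well above background in both RNAs in both hybridizations. Their ratios were not even between the clones: 5 of 7 were above 0 in both hybridizations and 1 below, with a median of 0.44, and 0 met the 2-fold rule. KRT7, a keratin, was highest at 0.49 and 1.17, and ERBB2, a growth factor receptor upstream of ERK, was lowest at -0.86 and -0.45, although the mean of its other kept probe was 0.22. These marker values were singled out after they were seen, and their part in the member ratios was not tested. Well above background in all channels too was PTPRC, which marks blood cells, whereas PECAM1 missed in the control of hybridization 2 and DES and ALB were not kept, so the background flag by itself does not show that a gene is expressed. Over all kept probes the log2 ratios of the hybridizations differed by 0.22 in the median and by less than 0.63 for 95% of probes. The median ratio of all kept probes was 0.01.

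DUSP6 encodes a cytoplasmic phosphatase selective for ERK. Its probe gave a normalized intensity of 465 in cl-sh3 and 1658 in the control in hybridization 1, and 580 in cl-sh3 and 1111 in the control in hybridization 2. The control lay above cl-sh3 in each hybridization, as for 27.3% of all kept probes. Intensities were not scaled between hybridizations, so the clones are compared only within each. In RNA from a whole culture, fewer cells with the transcript and less of it per cell cannot be told apart. The log2 ratios of cl-sh3 over control were -1.83 and -0.94, a level 3.56-fold and 1.92-fold lower. The hybridizations differed by 0.89, more than for 95% of the kept probes, but on the same side of 0. Of the kept probes, 67 (0.186%) had a lower mean ratio than the DUSP6 mean of -1.39. The scanner software's own ratios for the spot were -1.86 with a stated error of 0.27 and -1.10 with a stated error of 0.23, at least 2-fold in both hybridizations, so the rule on DUSP6 turns on the processing.

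The remaining phosphatases showed no such difference. DUSP1, a nuclear phosphatase of ERK and of the stress kinases and a classical immediate early gene, gave 4768 in cl-sh3 and 4900 in the control in hybridization 1, and 3971 and 4502 in hybridization 2. Its ratios were -0.04 and -0.18. DUSP4, another nuclear phosphatase, gave 1577 and 1869 in hybridization 1, 1255 and 1360 in hybridization 2, and ratios of -0.25 and -0.12. For both genes the control lay above cl-sh3 in each hybridization, but by far less than for DUSP6. DUSP5, a nuclear phosphatase selective for ERK, gave 396 in cl-sh3 and 444 in the control in hybridization 1, and 439 and 361 in hybridization 2. The ratios, -0.17 and 0.28, had opposite signs, and no direction can be given for DUSP5. The 4 phosphatase probes therefore ran from a DUSP6 mean of -1.39 to a DUSP5 mean of 0.06, with a median of -0.15.

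**Figure D1:**
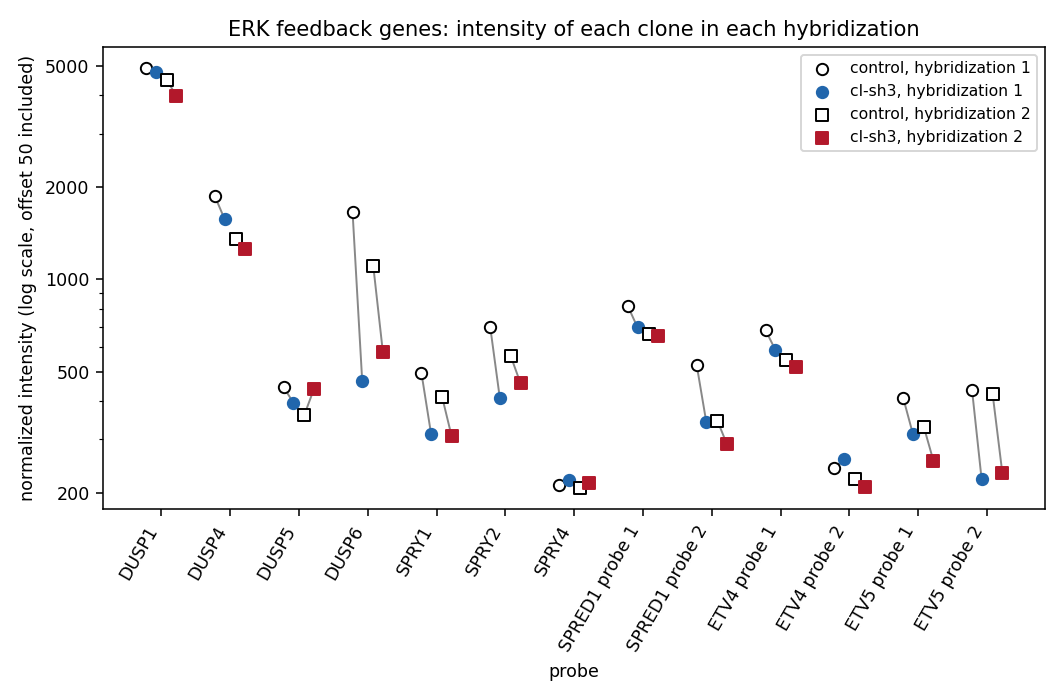
Normalized intensity of each probe (log axis, an offset of 50 included) in both clones and both hybridizations, with open symbols for the control and filled symbols for cl-sh3, joined within a hybridization. The control lies above cl-sh3 in both hybridizations for DUSP6, with 1658 against 465 and 1111 against 580. It lies slightly above for DUSP1 and DUSP4, while DUSP5 changes direction between hybridizations. Levels of different probes or of different hybridizations are not to be compared.

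The DNA ahead of DUSP6 and DUSP1 is shown to set the phosphatase gene with the largest difference beside the one with the smallest mean difference on the lower side. The sequences are the 250 bases before the annotated start, from RefSeq on GRCh38.p14, given 5′ to 3′ on the strand of the gene. Capitals mark the letters TGACGTC on either strand, the core of the cAMP response element, which CREB binds.

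DUSP6, chr12:89352502-89352751, minus strand: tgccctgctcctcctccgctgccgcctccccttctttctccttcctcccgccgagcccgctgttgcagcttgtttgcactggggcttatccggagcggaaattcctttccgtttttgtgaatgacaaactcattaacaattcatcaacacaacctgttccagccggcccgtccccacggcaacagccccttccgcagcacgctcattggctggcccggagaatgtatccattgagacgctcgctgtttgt

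DUSP1, chr5:172771196-172771445, minus strand: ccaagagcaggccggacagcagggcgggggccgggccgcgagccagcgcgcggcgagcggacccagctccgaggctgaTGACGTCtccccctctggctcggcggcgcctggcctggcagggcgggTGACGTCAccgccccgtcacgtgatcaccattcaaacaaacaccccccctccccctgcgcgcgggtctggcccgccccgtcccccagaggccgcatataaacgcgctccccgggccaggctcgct

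The DUSP1 window held these letters 172, 125 and 124 bases before the start, the last pair overlapping on opposite strands, and the DUSP6 window held none. Both windows were rich in G and C, with 57.2% in DUSP6 and 74.4% in DUSP1. Promoter entries were used for 6 of the 10 genes, in 9 windows, and none was used for DUSP4, DUSP5, ETV4 or ETV5. Either of the RUNX core letters TGTGGT and TGCGGT, searched on both strands, stood in 16.3% of the 35116 windows of all genes and in 0 of the 9. The ETS letters CCGGAAG were in 1 of the 9, a window of SPRY1, against 8.52% of all, the cAMP response letters in the DUSP1 window alone, against 3.12% of all, and the AP-1 letters TGACTCA in 0, against 4.20%. These are matches of letters in a short window and show neither binding nor its absence.

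Sprouty proteins are inhibitors of receptor tyrosine kinase signalling that bind adaptor proteins and RAF. SPRY1 gave an intensity of 313 in cl-sh3 and 495 in the control in hybridization 1, and 307 and 414 in hybridization 2. SPRY2 gave 409 and 699 in hybridization 1, and 458 and 560 in hybridization 2. For both, the control lay above cl-sh3 in each hybridization, as for 27.3% of all kept probes. The ratios of SPRY1 were -0.66 and -0.43 and those of SPRY2 were -0.78 and -0.29, a mean level 1.46-fold and 1.45-fold lower. The hybridizations of SPRY2 differed by 0.48, about as much as the mean difference itself of -0.53. Of the kept probes, 1753 (4.86%) had a lower mean than SPRY1 and 1832 (5.08%) a lower mean than SPRY2.

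SPRY4, a further Sprouty inhibitor, gave 221 in cl-sh3 and 213 in the control in hybridization 1, and 217 and 208 in hybridization 2. The cl-sh3 value lay slightly above the control value in each hybridization, as for 29.8% of all kept probes. The ratios were 0.05 and 0.06, and it was the single probe of the 13 above 0 in both hybridizations. The software's own ratios were 0.25 and 0.07, with stated errors of 0.25 and 0.33, and their mean was 0.16. The intensities include the offset of 50, which draws the ratios of dim probes towards 0. Only 15.8% of kept probes were dimmer than this one, and the background flag by itself does not show that SPRY4 is expressed.

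SPRED1 is a membrane protein related to the Sproutys that brings neurofibromin, an inactivator of RAS, to the plasma membrane. Its brighter probe, A_24_P107859, gave 697 in cl-sh3 and 817 in the control in hybridization 1, and 654 and 665 in hybridization 2. The dimmer probe, A_23_P54460, gave 341 and 525 in hybridization 1, and 289 and 346 in hybridization 2. On both probes the control lay above cl-sh3 in each hybridization, by more on the dimmer one. The ratios were -0.23 and -0.02 for the brighter probe and -0.62 and -0.26 for the dimmer one, so the probes of SPRED1 agreed in sign and differed in size. The 5 Sprouty and SPRED probes had a median mean ratio of -0.44 (-0.62 in hybridization 1, -0.26 in the reverse), and all 5 were lower in hybridization 1 than in hybridization 2.

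**Figure D2:**
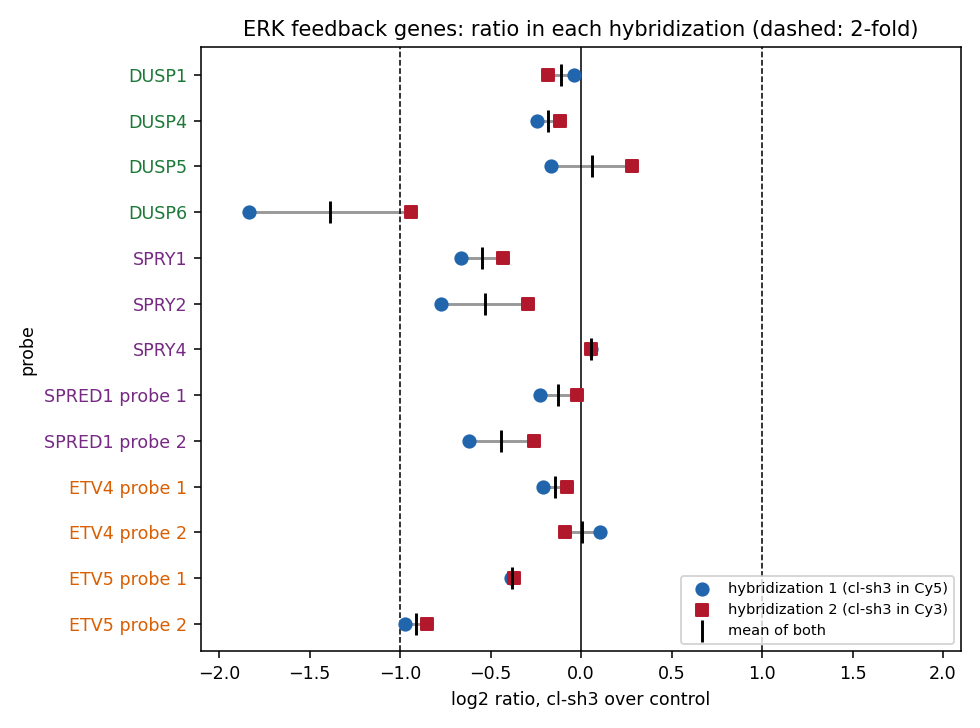
Log2 ratio of cl-sh3 over control for each probe in hybridization 1 (circles) and hybridization 2 (squares), with the mean of both (bars), dashed lines at a 2-fold difference, and probe names coloured by family; probe 1 is the brighter probe of a gene. DUSP6 passes the 2-fold line at -1.83 and stops short of it at -0.94, both ETV5 probes lie below 0, and DUSP5 and the dimmer ETV4 probe lie on both sides of 0.

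ETV4 and ETV5 are ETS transcription factors of the PEA3 group, induced by ERK and fibroblast growth factor signalling and known for roles in branching organs and in cell invasion. For ETV5 the brighter probe, A_32_P30649, gave 313 in cl-sh3 and 410 in the control in hybridization 1, and 255 and 329 in hybridization 2. The dimmer probe, A_23_P9836, gave 222 and 436 in hybridization 1, and 234 and 421 in hybridization 2. On each of these probes the control lay above cl-sh3 in both hybridizations. Brightness was ranked on both RNAs together, so the lower cl-sh3 signal counted in the ranking. In the control RNA alone, the probe called dimmer gave the higher value in each hybridization. The ratios were -0.39 and -0.37 for the brighter probe and -0.97 and -0.85 for the dimmer one, or 1.30-fold and 1.88-fold lower in the mean. The hybridizations of each ETV5 probe differed by no more than 0.13, less than the gap between the mean ratios of the probes, so the size of the ETV5 difference depended on the probe. Of the kept probes, 1.03% had a lower mean than the dimmer ETV5 probe and 9.42% a lower mean than the brighter one.

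ETV4 showed no comparable difference. Its brighter probe, A_23_P431776, gave 590 in cl-sh3 and 683 in the control in hybridization 1, and 518 and 547 in hybridization 2, with ratios of -0.21 and -0.08. The dimmer probe, A_24_P416346, gave 260 and 241 in hybridization 1, and 209 and 223 in hybridization 2, with ratios of 0.10 and -0.09. The brighter probe was below 0 in both hybridizations, and the dimmer one had no common sign. Only 18.4% of kept probes were dimmer than the latter, and the background flag by itself does not show that it measured a transcript. Over the 4 probes of the PEA3 factors the median was -0.26, and 3 were below 0 in both hybridizations.

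Over all 13 probes, 10 were below 0 in both hybridizations, 1 was above 0 in both and 2 had mixed signs. Of all kept probes, 27.3% were below 0 in both and 29.8% above 0 in both. The median of the 13 mean ratios was -0.18, with -0.25 in hybridization 1 and -0.18 in hybridization 2, against 0.01 over all kept probes. Without DUSP6 the median of the remaining 12 was -0.16. With each gene read by its brightest probe, 8 of 10 genes were below 0 in both hybridizations and the median was -0.16, while 28.4% of the 16150 named genes were below 0 in both and 30.9% above. ETV5 entered that count with its probe of mean -0.38 and not with the one of -0.91.

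The dye orientation moved with these values. Of the 13 probes, 11 had a lower ratio in hybridization 1, where cl-sh3 carried Cy5, as had 19806 of all 36060 kept probes, and the median difference was -0.13 for the members and -0.04 for all. At least 2-fold lower in hybridization 1 were 1 of the 13 probes, DUSP6, and 1.4% of all kept probes, and in hybridization 2 the counts were 0 of the 13 and 0.544%. The part of the dye in the member ratios was not tested, beyond the balance that the exchange of dyes gives to the mean.

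**Figure D3:**
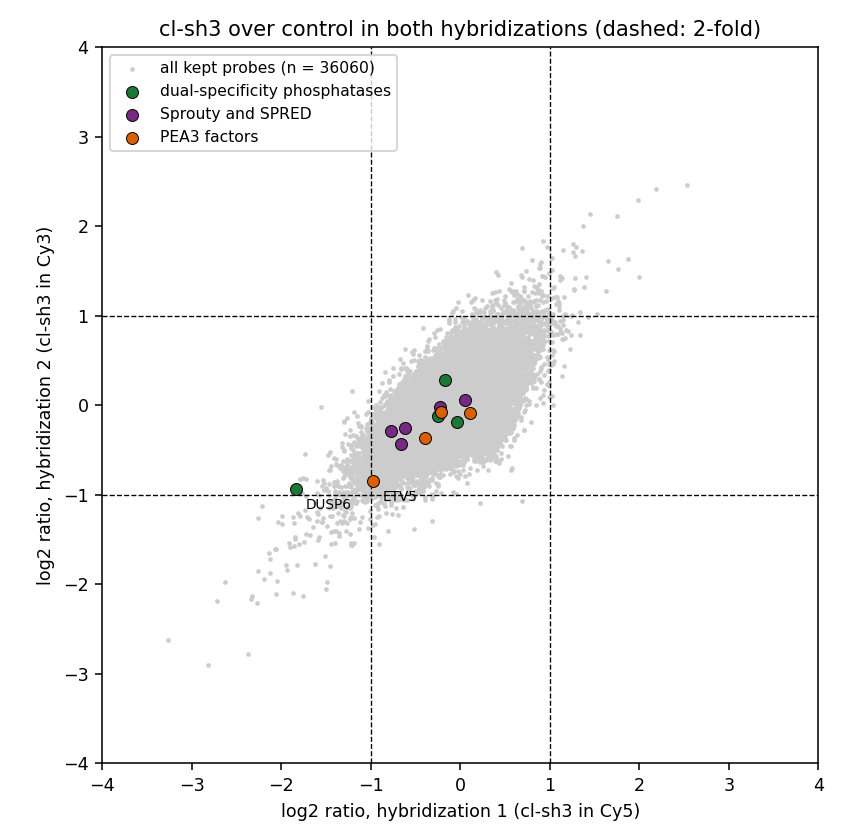
Log2 ratio of cl-sh3 over control in hybridization 2 against hybridization 1 for all 36060 kept probes (grey) and the 13 probes of the ERK feedback genes (coloured by family), with dashed lines at a 2-fold difference. DUSP6 and the dimmer ETV5 probe lie just outside the 2-fold region at the lower left, and the other 11 probes lie within the main cloud.

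The scanner software attaches an error to each ratio, made from its own model of spot noise and not from replicates. By its ratios, 3 of the 13 probes were at least 2 such errors below 0 in both hybridizations, namely DUSP6, SPRY2 and the dimmer ETV5 probe, and 5.67% of all kept probes were. The SPRY2 ratios were -0.77 and -0.47, with an error of 0.22 in each. The dimmer ETV5 probe gave -1.36 and -1.10 with errors of 0.25 and 0.26, beyond 2-fold in both hybridizations. With the software's ratios, 2 of the 13 probes (DUSP6 and this ETV5 probe) met the 2-fold rule on the lower side, as did 0.702% of all kept probes. With background correction at offset 0 the same 2 probes met it, and 0.538% of all. The processing used here placed neither past it.

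**Figure D4:**
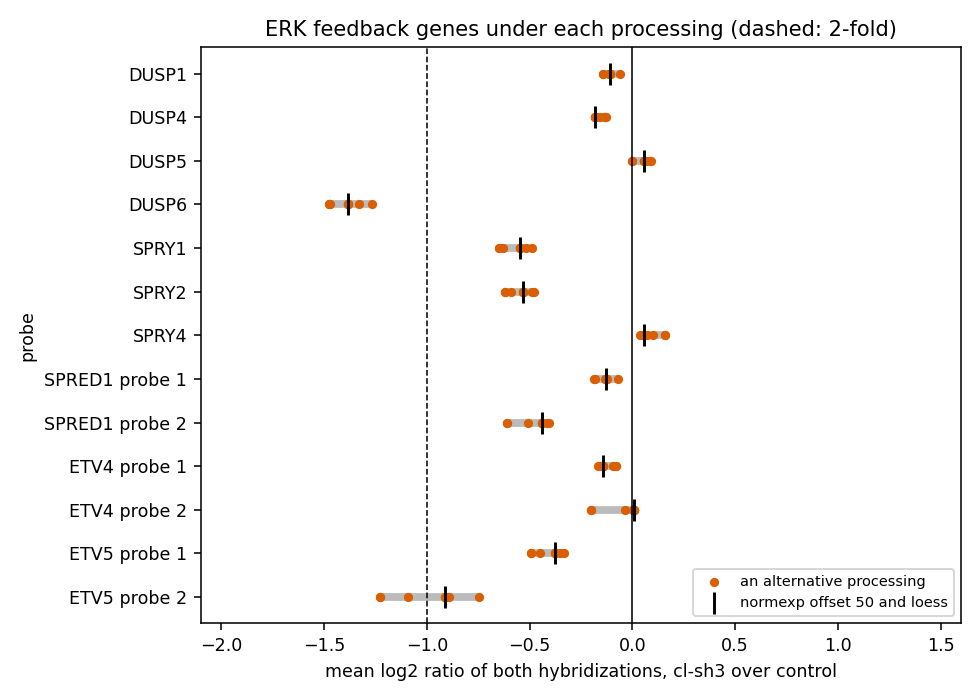
Mean log2 ratio of cl-sh3 over control for each probe with the processing used here (black bars) and with the alternatives that use both hybridizations (orange points, joined by a grey band), with a dashed line at a 2-fold difference. DUSP6 stays between -1.48 and -1.27, the dimmer ETV5 probe runs from -1.23 to -0.75 across the line, and SPRY1 and SPRY2 stay between -0.65 and -0.48.

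The genes around these members were read from 4 lists, each gene by its brightest kept probe, and by the same rule. Of the cascade itself, from adaptors and RAS to MEK, ERK and the ETS and SRF factors they reach, 33 of 33 genes were measured and 0 met the 2-fold rule in either direction, where 0.52% of named genes were lower and 0.136% higher. In this list 15 genes were below 0 in both hybridizations and 12 above. Over all named genes these shares were 28.4% and 30.9%, the background for each of the lists. The median of the cascade was -0.04, with -0.12 in hybridization 2 alone and 0.02 with median centring. The lowest was MAP2K1, which encodes MEK1, at -0.83 and -0.63, and the highest was MAP2K2, which encodes MEK2, at 0.30 and 1.11. The ratio of MAP2K2 passed 2-fold in hybridization 2 alone.

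Of other members of the phosphatase, Sprouty, SPRED and PEA3 families, 9 of 10 were measured and 0 met the rule. Their median was 0.05, with 2 below 0 in both hybridizations, 3 above and 4 of mixed sign. SPRED2, which like SPRED1 restrains RAS, was lowest at -0.32 in both hybridizations, and DUSP8, a phosphatase of the stress kinases, was highest at 0.35 and 0.09.

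Of 24 further genes that ERK signalling is known to induce, 23 were measured, with a median of -0.09, 8 below 0 in both hybridizations, 3 above and 12 of mixed sign. PHLDA1, a pleckstrin homology-like protein induced by growth factors, was lower at -1.38 and -1.10. It was the 1 gene of the list that met the rule, against 0.52% of named genes, and 0 were higher, against 0.136%. Its 4 probes had means from -1.24 to -0.19. The highest of the list was EPHA4, an ephrin receptor, at 0.60 and 0.87.

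Of 20 genes listed as upstream restraints of the pathway, most of which act on receptors, RAS, RAF or ERK, all 20 were measured. Their median was -0.01, with 5 below 0 in both hybridizations, 5 above and 10 of mixed sign. ERRFI1, an inhibitor of the EGF receptor that growth factors induce, was lower at -2.07 and -1.61, the 1 gene of the list that met the rule, against 0.52% of named genes. Its second kept probe had a mean of -0.62. The highest was RASAL2, a RAS GTPase-activating protein, at 0.29 and 0.64.

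**Figure D5:**
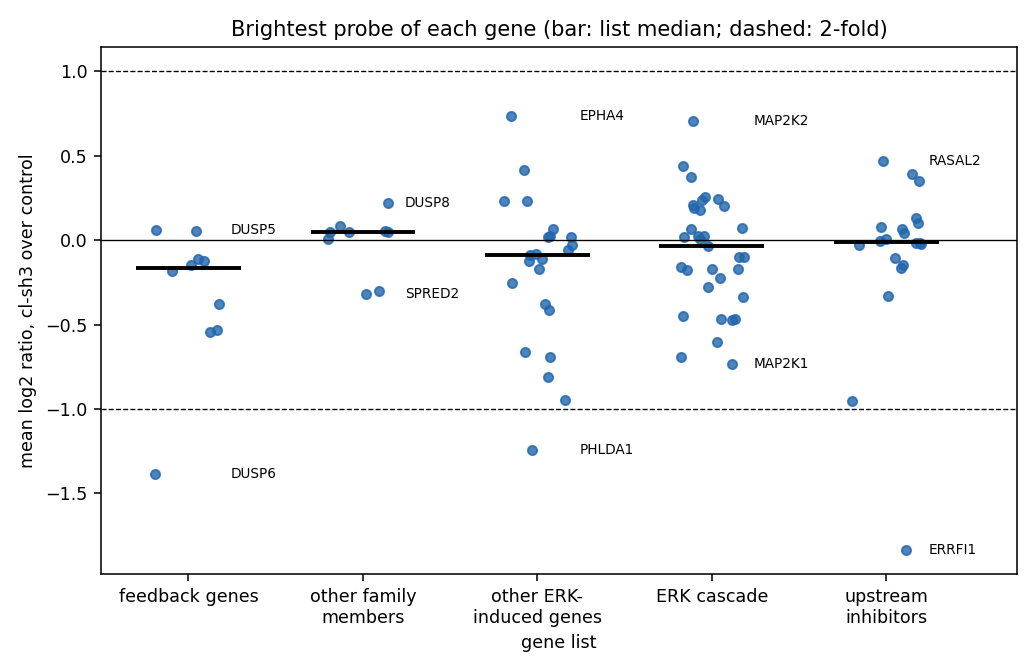
Mean log2 ratio of cl-sh3 over control for the brightest kept probe of each gene in the 10 feedback genes and the 4 lists of related genes, with a bar at each list's median, dashed lines at a 2-fold difference and the lowest and highest gene of each list named. The list medians run from -0.16 for the feedback genes to 0.05 for other family members, and DUSP6, PHLDA1 and ERRFI1 lie below the rest of their lists.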

How the data were processed

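The 2 RNAs were labelled as cRNA and hybridized to 2-colour Agilent whole human genome arrays in a dye exchange. The authors deposited spot intensities with local backgrounds and flags, and the Feature Extraction software's log10 ratios with their log10 errors; the deposited value table holds the same log10 ratios to within 0.00245 and 0.00500. The file headers give software version 10.5.1.1 and the submitters' processing notes 8.5.1.1. The paper's text names no normalization.

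Median spot intensities were background-corrected by the normexp method of limma 3.58.1 (R 4.3.3) at an offset of 50, with control spots at weight 0, outlier spots left out and loess within each array. Printed intensities include the offset. Other steps used Python 3.11.15. A probe was kept when at least 50% of its spots were well above background in at least 1 RNA in both hybridizations. The log2 ratios, cl-sh3 to control in both hybridizations, were averaged. Of 18715 RefSeq accessions on the arrays, 18021 were named through RefSeq (GRCh38.p14), RUNX2 NM_004348 through the study's gene list. The arrays were annotated on another build, so no gene positions from that assembly are given besides the promoter windows.

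The members, the gene lists and the naming rule (every member probe, RUNX2, and from each list the genes meeting the 2-fold rule and its lowest and highest gene) were chosen with earlier results of these data known. The number of arrays limits the precision. The processing was tested on simulated data, with changes larger than those of the members and set only in brighter probes. That test does not bear on the 2-fold calls of dim probes. Alternatives were another offset, no background correction, median centring, Aquantile, flagged spots kept, other detection filters, the software's ratios, the deposited table, each hybridization alone and, chosen after seeing the data, the 2-fold rule on the mean.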

Additional observations from a re-analysis of the deposited data

How the results depend on the processing

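The count of member probes at least 2-fold lower in both hybridizations was 0 with the processing used, and 2 (DUSP6 and ETV5) with normexp at offset 0, with the software's log ratios and with the deposited value table. With the 2-fold rule on the mean of both hybridizations, chosen after seeing the data, it was 1 (DUSP6). With 1 hybridization left out it was 0 to 1, and the 1 was DUSP6 in hybridization 1. The count of higher member probes was 0 in every setting. The median member ratio was -0.18, moved to -0.13 with median centring, and was -0.25 to -0.18 with 1 hybridization left out. Over all kept probes 186 met the rule in either direction, 356 with the software's ratios, 354 with the deposited table, 343 with the rule on the mean, and 415 to 594 with 1 hybridization left out. With median centring 61.7% of those meeting the rule were lower, against 76.3% with loess. In hybridization 1 alone 85.2% were lower, and in hybridization 2 alone 47.2%, so there the higher side was the larger. The mean of 11 member probes kept its sign in every setting that used both hybridizations, and that of DUSP5 and the dimmer ETV4 probe did not. The number of member probes below 0 in both hybridizations was 10, and 9 with median centring. With the software's ratios the 10 were not all the same probes. There DUSP1 had mixed signs, at 0.01 and -0.30, and the dimmer ETV4 probe was below 0 in both, at -0.04 and -0.37. The medians of the ERK cascade and of the upstream restraints changed sign with median centring, to 0.02 and 0.05, and the latter was 0.03 with the software's ratios. In hybridization 2 alone the median of the ERK cascade was -0.12 against -0.04, and the medians of the other family members and of the upstream restraints changed sign too, to -0.05 and 0.05. PHLDA1, ERRFI1 and RUNX2 met the rule in every setting, and MAP2K2 in hybridization 2 alone. The cause of these changes was not tested. No paired analysis was possible because both hybridizations hold the same pair of RNAs and are 1 replicate.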

Other observations

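Genes of the same families that were on none of the lists were read by symbol after the data were seen. Of 12 further genes with a DUSP symbol and a kept probe, among them the noncoding pseudogene DUSP5P1, 0 met the 2-fold rule. Of these 12, 4 were below 0 in both hybridizations and 3 above, and the median was -0.01. The lowest was DUSP12, an atypical phosphatase, at -1.14 and -0.56. Of 17 further ETS factor genes, 0 met the rule, 4 were below 0 in both hybridizations and 3 above, with a median of -0.01. ETS1 was lowest at -0.75 and -0.74, although its 3 kept probes had means from -0.74 to 0.15. GABPA, part of a widely expressed ETS complex, gave -0.56 and -0.52. ELF3, an epithelial ETS factor, was highest at 0.84 and 0.96, followed by EHF at 0.37 and 0.53.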
